A study of Homo sapiens with 16 samples.

Results

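A set of 43 interferon stimulated genes (ISGs), listed by name, was followed through histone H3 lysine 27 acetylation (H3K27ac) in THP-1 cells with and without USP18. A region was assigned to a gene where the deposited table gave that gene's name and a distance of at most 10000 bp to the transcription start site (TSS). This gave 153 of the 151654 regions in the table, belonging to 41 of the 43 genes. ZNFX1 had no region in the table, and STARD5 had 2 regions that lay farther away and 0 within the distance. Of the 153 regions, 149 passed the filter on low counts and were tested, at least 1 for each of the 41 genes. The 4 that did not pass lay near APOL4 (9705 bp), EPSTI1 (-4401 bp), PLSCR1 (-6453 bp) and PNPT1 (6511 bp), where a negative distance is upstream.

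Type I interferons such as IFNα bind a receptor on the cell surface, which activates JAK kinases and the transcription factor complex ISGF3. ISGF3 binds the interferon stimulated response element (ISRE) at ISGs and recruits enzymes that acetylate histones, and H3K27ac is a mark of active promoters and enhancers. USP18 removes the ubiquitin-like protein ISG15 from proteins and, apart from that activity, binds the receptor chain IFNAR2 and restrains signalling. ISGs encode antiviral nucleases and RNA binding proteins, regulators of the response itself, lysosomal and secreted proteins, and metabolic enzymes.

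THP-1, a cell line from a human monocytic leukemia, was used throughout. The 8 libraries formed 4 groups of 2: WT cells labelled as carrying Cas9 only, and USP18−/− cells made by CRISPR, each without treatment and after 6 h with 1000 U/ml of IFNα. All cells had been transduced with lentivirus, and the USP18−/− cells came from single sorted cells, so genotype and clone cannot be told apart. The methods describe the libraries of a group as biological replicates, and since all come from 1 cell line the p-values measure only the spread between these libraries. The libraries held 9046141 to 12935453.5 tags in regions of 1000 bp. Levels are given in CPM, the tags of a region relative to the library total after edgeR's TMM scaling, and since every region has the same width, levels can be set side by side. A region was called higher or lower where the log2 fold change exceeded 1 in size and its Benjamini-Hochberg adjusted p (edgeR, quasi-likelihood test) was below 0.05. Of 9 myeloid markers 7 had a region within 1000 bp of the TSS, at 64.6 to 131 CPM for SPI1, 19.6 to 40.1 for CD68, 4.60 to 17.6 for LYZ, 9.08 to 13.1 for CD33, 8.25 to 12.2 for ITGAM, 3.18 to 8.83 for CD14 and 1.55 to 3.27 for CSF1R, and FCGR1A and MPO had none. These markers did not move together, since SPI1 was highest and LYZ and ITGAM lowest in the IFN treated USP18−/− libraries, and their part in the results below was not tested. Of 12 markers of T cells, B cells, erythroid and epithelial cells, 1 had a region within that distance, CD79A, at 4.51 to 7.51 CPM.

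Sequences holding the ISRE core GAAANNGAAA are shown first, since the core was more common in these regions than in the table as a whole. The core was searched on both strands in the 200 bases at the centre of each region, in the hg38 genome. It was found in 31 of the 149 tested regions (20.8%) and in 5.62% of all tested regions. Among the regions nearest a TSS, 1 for each gene and called TSS regions below, 16 of 41 held it (39%). The following stretches are from regions whose values are described below, written 5′ to 3′ on the strand that reads GAAANNGAAA, with the match in capitals. Overlapping matches occur, as in APOL1, where the letters before the capitals form another match. A match is a description of the letters and was not tested as a binding site.
EPSTI1 TSS region, chr13:42992270-42992303, minus strand: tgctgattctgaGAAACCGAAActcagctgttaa
DDX60 TSS region, chr4:168318784-168318817, minus strand: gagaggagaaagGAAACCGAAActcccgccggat
DDX60 TSS region, chr4:168318819-168318852, minus strand: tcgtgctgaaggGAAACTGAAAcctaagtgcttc
TMEM140 TSS region, chr7:135148007-135148040, plus strand: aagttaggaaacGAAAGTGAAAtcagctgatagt
RTP4 TSS region, chr3:187368355-187368388, plus strand: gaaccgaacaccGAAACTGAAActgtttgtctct
ETV7 TSS region, chr6:36387772-36387805, plus strand: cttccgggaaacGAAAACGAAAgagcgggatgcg
PNPT1 intron, chr2:55693505-55693538, plus strand: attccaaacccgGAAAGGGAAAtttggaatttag
XRN1 intron, chr3:142446135-142446168, plus strand: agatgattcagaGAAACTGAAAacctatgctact
Upstream of MOV10, chr1:112668858-112668891, plus strand: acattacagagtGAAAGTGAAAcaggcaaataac
APOL1 TSS region, chr22:36253062-36253095, minus strand: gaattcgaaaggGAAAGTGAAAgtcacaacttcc
APOL2 TSS region, chr22:36239565-36239598, plus strand: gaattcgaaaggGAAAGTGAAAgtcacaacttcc
The APOL1 and APOL2 stretches, which lie on opposite strands, read the same letter for letter.

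EPSTI1 had the largest rise among TSS regions in both genotypes, and its promoter is shown whole. The RefSeq promoter (GRCh38.p14, from 250 bases before to 50 after the start) lies at chr13:42992192-42992491 on the minus strand and holds 1 ISRE core, in capitals.
EPSTI1 promoter: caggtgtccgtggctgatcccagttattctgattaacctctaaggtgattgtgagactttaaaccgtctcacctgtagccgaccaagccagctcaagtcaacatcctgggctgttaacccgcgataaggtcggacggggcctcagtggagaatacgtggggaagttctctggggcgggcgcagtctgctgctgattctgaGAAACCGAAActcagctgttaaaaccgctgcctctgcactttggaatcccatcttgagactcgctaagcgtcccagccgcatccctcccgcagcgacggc
Of the 43 genes, 29 had a promoter in the RefSeq table, and 12 of these held an ISRE core (41.4%), against 3.65% of 27305 promoters in all. These 12 belonged to DDX60, DDX60L, EPSTI1, ISG20, LAP3, LGALS3BP, LGALS9, NMI, OGFR, PLSCR1, RTP4 and TMEM140.

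IFNα raised H3K27ac at these genes in both genotypes, at more regions in USP18−/− cells. In WT cells 23 of 149 member regions were called higher (15.4%), against 0.344% of all tested regions. These 23 regions belonged to 13 genes, against 0.798% of the 18796 genes with a tested region within 10000 bp. In WT cells 0 member regions were called lower, against 0.0381% of all regions, while 3 had a fold change below 0 with an unadjusted p under 0.05, and DESeq2 also called 0. In USP18−/− cells 86 of the 149 were called higher (57.7%), against 7.14% of all regions, and 6 lower (4.03%), against 4.28%. Over all tested regions within 10000 bp of a TSS the shares in USP18−/− cells were 5.73% higher and 3.11% lower. The rises fell at 35 genes, against 9.33% of all genes. All 23 regions that rose in WT cells were also called higher in USP18−/− cells. The median log2 fold change of the member regions was 0.35 in WT and 1.26 in USP18−/− cells, and over all tested regions it was -0.01 in both.

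The difference of the IFNα effects was tested as a contrast of its own. It was larger in USP18−/− cells at 52 of 149 member regions (34.9%), against 4.66% of all regions, and smaller at 1 (0.671%), against 2.51%. Over all tested regions within 10000 bp of a TSS the shares were 3.90% larger and 1.91% smaller. The 52 regions belonged to 28 genes, against 6.65% of all genes. Of the 23 regions that rose in both genotypes 13 had a larger rise in USP18−/− cells, and of the 63 regions called higher in USP18−/− but not WT cells 39 did. Both sets were chosen by calls from the same libraries, and the choice of the 63 favours a larger rise in USP18−/− cells. These counts therefore only describe the sets. Many windows of a gene overlap and share tags, 84 of the 153 in all. With 1 window kept for each chain of overlapping windows, 102 member regions were tested, of which 14 were called higher in WT cells, 56 in USP18−/− cells and 34 had the larger rise.

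**Figure D1:**
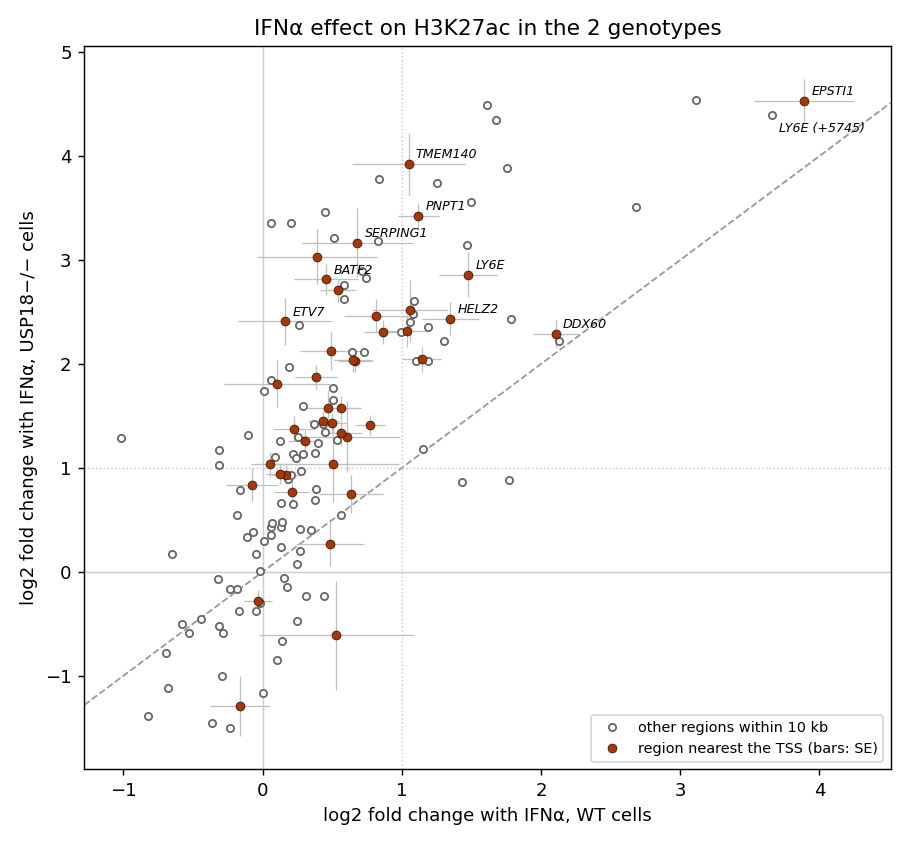
Log2 fold change of H3K27ac with IFNα in WT cells (x axis) and in USP18−/− cells (y axis) for the 149 tested regions of the ISGs. Filled points are the 41 TSS regions with standard errors, the dashed line marks equal effects and the dotted lines a log2 fold change of 1. Most points lie above the dashed line, and DDX60 lies close to it.

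Levels at the 41 TSS regions spanned a wide range before treatment. In untreated WT cells the group means ran from 0.434 CPM at EPSTI1 to 50.2 CPM at SCO2, with a median of 8.60 CPM. In untreated USP18−/− cells the median was 8.69 CPM. With IFNα the median reached 14.2 CPM in WT cells and 44.4 CPM in USP18−/− cells, where APOL6 was highest at 140.3 CPM and LAMP3 lowest at 0.783 CPM. Of the 41 TSS regions 8 were called higher with IFNα in WT cells and 32 in USP18−/− cells. Over all tested regions within 10000 bp of a TSS the shares called higher were 0.45% and 5.73%. Within 1000 bp the share in USP18−/− cells was 3.90%.

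**Figure D2:**
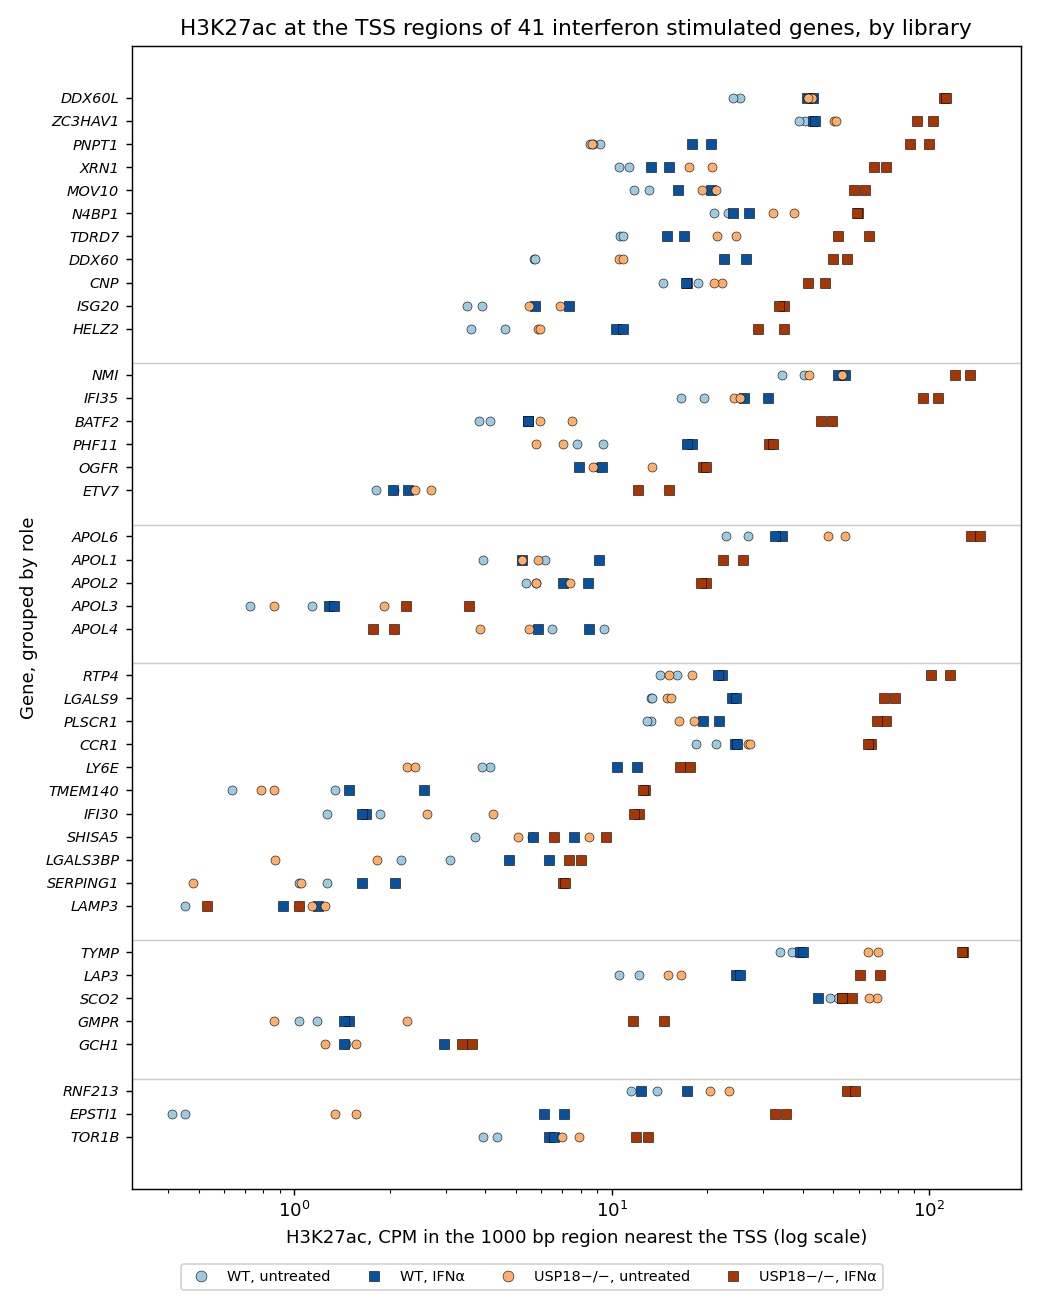
H3K27ac in CPM (log scale) at the region nearest the TSS of each of 41 ISGs, with 1 point for each of the 8 libraries. Genes are grouped by role, from top to bottom RNA binding and nucleases, regulators, APOL family, membrane and secreted, metabolic, and other. IFN treated USP18−/− libraries are the highest for most genes, while SCO2, LAMP3, SHISA5 and APOL4 depart from this. The APOL4 region lies upstream, at -6585 bp.

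Genes for helicases, nucleases and RNA binding proteins form the largest group, with 11 of 12 listed genes and 42 tested regions. Of these regions 6 rose with IFNα in WT cells, and in USP18−/− cells 23 rose and 1 fell. The rise was larger in USP18−/− cells at 13 regions, belonging to 7 genes. PNPT1 encodes polynucleotide phosphorylase, a mitochondrial exoribonuclease. Its TSS region (chr2:55693383-55694383) gave 9.19 and 8.53 CPM in untreated WT libraries and 17.9 and 20.5 with IFNα. In USP18−/− cells it gave 8.73 and 8.66 CPM untreated and 100.2 and 86.8 with IFNα. The untreated groups overlapped, and the IFN treated groups stood apart from them and from each other. In WT cells the log2 rise was 1.12 (SE 0.15, adjusted p = 3.6e-08) and 3.43 in USP18−/− cells (SE 0.13, adjusted p = 4.8e-40). It was larger by 2.31 in USP18−/− cells (SE 0.20, adjusted p = 1.1e-15). The neighbouring intronic window of PNPT1, at 410 bp, rose by 1.25 and 3.74.

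XRN1 encodes the main cytoplasmic 5′ to 3′ exoribonuclease. A region in its intron (chr3:142445637-142446637) gave 3.10 and 2.18 CPM in untreated WT cells and 4.95 and 4.41 with IFNα. In USP18−/− cells the values were 2.97 and 2.89 CPM untreated and 42.2 and 38.7 with IFNα. Only the IFN treated USP18−/− libraries stood far from the rest. The WT difference of 0.84 did not pass the test (SE 0.26, adjusted p = 0.13), whereas the rise in USP18−/− cells was 3.78 (SE 0.18, adjusted p = 9.8e-33), larger by 2.94 (SE 0.35, adjusted p = 1.0e-10). At the XRN1 TSS the rise in USP18−/− cells was smaller, at 1.88.

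DDX60 encodes a helicase that takes part in sensing viral RNA, and it differed from PNPT1 and XRN1. Its TSS region (chr4:168318277-168319277) gave 5.68 and 5.72 CPM in untreated WT cells and 22.6 and 26.6 with IFNα. USP18−/− cells gave 10.6 and 10.9 CPM untreated and 55.2 and 49.7 with IFNα. All 4 groups were separate, with untreated USP18−/− libraries above untreated WT libraries. The rises were 2.11 in WT cells (SE 0.16, adjusted p = 1.6e-18) and 2.29 in USP18−/− cells (SE 0.13, adjusted p = 1.7e-27), and their difference of 0.19 did not pass the test (SE 0.22, adjusted p = 0.71). Untreated USP18−/− cells exceeded WT cells by 0.91, below the fold threshold. A second DDX60 window at 355 bp, which overlaps the first, rose by 2.13 and 2.22. DDX60L, the neighbouring paralog, rose by 1.19 in WT and 2.35 in USP18−/− cells at the region at -602 bp.

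ISG20, a 3′ exonuclease acting on single-stranded RNA, gave 3.51 and 3.90 CPM at its TSS in untreated WT cells, and 7.33 and 5.74 with IFNα. In USP18−/− cells it gave 6.89 and 5.49 CPM untreated and 34.9 and 33.8 with IFNα. The rise in USP18−/− cells was 2.46 (SE 0.16, adjusted p = 4.1e-24), and the WT difference of 0.81 did not pass the test (SE 0.23, adjusted p = 0.062). Overlapping ISG20 windows at -2922 and -2632 bp, at the end of another annotated transcript, were higher. Their means were 65.7 and 64.0 CPM in IFN treated USP18−/− cells. Both windows rose in USP18−/− cells, by 3.18 and 3.21, with called differences from WT cells of 2.35 and 2.70. HELZ2, a helicase and nuclear receptor coactivator, gave 3.62 and 4.63 CPM in untreated WT cells and 10.3 and 10.9 with IFNα. USP18−/− cells gave 5.85 and 5.97 CPM untreated and 35.0 and 29.0 with IFNα at HELZ2. Its rises were 1.35 in WT cells (SE 0.20, adjusted p = 1.9e-06) and 2.44 in USP18−/− cells (SE 0.16, adjusted p = 1.7e-23). The HELZ2 difference of 1.09 no longer passed without WT replicate 2 (0.89) or without IFN treated USP18−/− replicate 1 (0.90).

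The remaining RNA genes had smaller rises in USP18−/− cells. At their TSS regions the log2 fold change was 1.58 at MOV10, a helicase that restricts retroelements, 1.41 at DDX60L, 1.34 at TDRD7 and 1.03 at CNP. The CNP value was 0.99 without untreated USP18−/− replicate 2 and 0.90 without IFN treated USP18−/− replicate 1 or under scaling by the sum of counts. ZC3HAV1, the zinc finger antiviral protein, was below the fold threshold at its nearest region (0.94) and was called at the next window at 264 bp (1.30). N4BP1, an endoribonuclease, had no called rise, with 0.77 at its TSS region (SE 0.11, adjusted p = 3.6e-09).

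Among the 6 regulators of transcription and signalling, with 22 regions, 1 region rose with IFNα in WT cells, and in USP18−/− cells 13 rose and 3 fell. BATF2, a transcription factor of the AP-1 family, had 2 annotated starts that moved in opposite directions in USP18−/− cells. The region at the upstream start (chr11:64996522-64997522) gave 4.13 and 3.81 CPM in untreated WT cells, 5.45 and 5.44 with IFNα, 7.51 and 5.97 in untreated USP18−/− cells and 49.6 and 45.6 with IFNα. It rose by 2.81 in USP18−/− cells (SE 0.15, adjusted p = 1.1e-29), larger by 2.36 than in WT cells (SE 0.28, adjusted p = 2.0e-10). The region at the other start (chr11:64989831-64990831) gave 3.41 and 2.00 CPM in untreated WT cells, 1.98 and 2.15 with IFNα, 7.24 and 4.72 in untreated USP18−/− cells and 2.22 and 2.16 with IFNα. There the untreated USP18−/− libraries were the highest. This region fell by 1.45 with IFNα in USP18−/− cells (SE 0.28, adjusted p = 1.5e-05). Whether the 2 starts of BATF2 differed in their response was not tested.

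ETV7, an ETS family transcription factor, gave 2.07 and 1.82 CPM at its TSS in untreated WT cells, 2.28 and 2.05 with IFNα, 2.71 and 2.41 in untreated USP18−/− cells and 15.2 and 12.1 with IFNα. The IFN treated USP18−/− libraries stood alone, with a rise of 2.41 (SE 0.23, adjusted p = 1.2e-15). The difference from WT cells was 2.25 (SE 0.42, adjusted p = 2.5e-05). PHF11, a zinc finger protein, was the regulator with a called rise in WT cells. It gave 9.40 and 7.81 CPM untreated and 17.9 and 17.3 with IFNα in WT cells, and 5.76 and 7.03 untreated and 31.4 and 32.2 with IFNα in USP18−/− cells. Its rises were 1.04 (SE 0.16, adjusted p = 3.9e-06) and 2.32 (SE 0.16, adjusted p = 2.8e-23), and without WT replicate 2 the WT value was 0.91 and below the fold threshold. NMI and IFI35, which bind each other, rose by 1.43 and 2.03 at their TSS regions in USP18−/− cells. OGFR, the opioid growth factor receptor, had no called rise, with 0.84 (SE 0.16, adjusted p = 1.3e-05), although its TSS region held an ISRE core. Without untreated USP18−/− replicate 2 the OGFR value was 1.17 and passed.

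Membrane, lysosomal and secreted proteins made up 11 genes and 45 regions. Of these 7 rose with IFNα in WT cells, 22 rose and 1 fell in USP18−/− cells, and 18 had a larger rise in USP18−/− cells. LY6E, a surface protein linked to viral entry, had the strongest response downstream of the gene. An intergenic region 5745 bp from its TSS, on chromosome 8 from 143023730 to 143024730, gave 3.41 and 3.90 CPM in untreated WT cells and 48.5 and 44.3 with IFNα. In USP18−/− cells it gave 4.10 and 5.58 CPM untreated and 101 and 101 with IFNα. The untreated groups lay close together and both IFN treated groups stood far above them. The rise was 3.66 in WT cells (SE 0.15, adjusted p = 3.3e-34) and 4.39 in USP18−/− cells (SE 0.14, adjusted p = 5.1e-45), and the difference of 0.73 stayed below the fold threshold (SE 0.24, adjusted p = 0.032). At the LY6E TSS, untreated WT cells gave 4.13 and 3.90 CPM against 10.4 and 12 with IFNα, and USP18−/− cells gave 2.27 and 2.41 CPM against 16.4 and 17.7. Those rises were 1.48 (SE 0.21, adjusted p = 2.4e-07) and 2.86 (SE 0.21, adjusted p = 8.8e-21), with a difference of 1.38 (SE 0.32, adjusted p = 0.00079). Farther downstream, at 7954 bp, LY6E gave 6.51 and 6.35 CPM untreated and 39.5 and 43.3 with IFNα in WT cells, and 8.99 and 9.82 CPM untreated and 111 and 103 with IFNα in USP18−/− cells. The windows at 404 and 649 bp overlap the TSS window and rose by 3.56 and 3.88 in USP18−/− cells.

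RTP4 encodes a chaperone of G protein coupled receptors. Its TSS region (chr3:187367865-187368865) gave 16.1 and 14.2 CPM in untreated WT cells, 22.3 and 21.6 with IFNα, 18.0 and 15.1 in untreated USP18−/− cells and 116 and 101 with IFNα. The difference of 0.54 in WT cells was under the fold threshold (SE 0.13, adjusted p = 0.017). In USP18−/− cells the region rose by 2.71 (SE 0.11, adjusted p = 1.3e-36), larger by 2.17 (SE 0.18, adjusted p = 2.0e-17). TMEM140, a transmembrane protein, started much lower, at 1.34 and 0.635 CPM in untreated WT cells, 1.49 and 2.56 with IFNα, 0.785 and 0.866 in untreated USP18−/− cells and 12.8 and 12.6 with IFNα. Its rise in USP18−/− cells was 3.92 (SE 0.29, adjusted p = 1.6e-20), and the difference from WT cells was 2.87 (SE 0.57, adjusted p = 8.1e-05), which without WT replicate 1 was 2.28 and no longer passed. SERPING1, the C1 inhibitor of complement, gave 1.03 and 1.27 CPM in untreated WT cells, 2.08 and 1.64 with IFNα, 1.05 and 0.481 in untreated USP18−/− cells and 7.01 and 7.14 with IFNα. It rose by 3.17 in USP18−/− cells (SE 0.33, adjusted p = 1.7e-13). From this low untreated level the rise was 2.74 to 3.82 with a library left out.

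Both galectin related genes of the group rose. LGALS9, galectin-9, gave 13.3 and 13.4 CPM in untreated WT cells, 24 and 24.7 with IFNα, 14.9 and 15.4 in untreated USP18−/− cells and 78.0 and 72.3 with IFNα. The increase of 0.86 in WT cells was under the fold threshold (SE 0.13, adjusted p = 2.7e-06), and the rise in USP18−/− cells was 2.31 (SE 0.12, adjusted p = 3.5e-31). LGALS3BP, a secreted glycoprotein that binds galectin-3, gave 2.17 and 3.09 CPM in untreated WT cells, 4.76 and 6.36 with IFNα, 0.873 and 1.83 in untreated USP18−/− cells and 7.99 and 7.32 with IFNα. It rose by 1.06 in WT cells (SE 0.27, adjusted p = 0.030) and 2.52 in USP18−/− cells (SE 0.29, adjusted p = 8.0e-12). The WT call was lost without any 1 of the 4 WT libraries (0.84 to 1.35) and with DESeq2 (adjusted p = 0.24).

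SHISA5, a protein of the endoplasmic reticulum membrane, again had regions at different starts. The window at 130 bp from one start (chr3:48472703-48473703, in the 5′ UTR) gave 20.7 and 19.3 CPM in untreated WT cells, 41.4 and 41.8 with IFNα, 23.7 and 20.9 in untreated USP18−/− cells and 122 and 114 with IFNα. It rose by 1.06 in WT cells (SE 0.11, adjusted p = 1.4e-11) and by 2.40 in USP18−/− cells (SE 0.10, adjusted p = 1.8e-35). At the other start (chr3:48503693-48504693) USP18−/− cells gave 5.06 and 8.47 CPM untreated and 9.59 and 6.57 with IFNα, and these overlapped. PLSCR1, a phospholipid scramblase, IFI30, a lysosomal thiol reductase, and CCR1, a chemokine receptor, rose by 2.04, 1.81 and 1.26 at their TSS regions in USP18−/− cells. CCR1 rose more at 2 intergenic regions upstream, by 2.90 at -5074 bp and 1.74 at -6496 bp. The differences from WT cells there, 2.19 and 1.73, were both called. LAMP3, a lysosomal membrane protein, stayed between 0.454 and 1.25 CPM in all 8 libraries and had no call in any region with IFNα.

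The apolipoprotein L genes lie together on chromosome 22. Of their 13 regions 0 were called with IFNα in WT cells, while in USP18−/− cells 8 rose and 1 fell. APOL6 was the highest of the family. Its TSS region (chr22:35647912-35648912) gave 26.9 and 23 CPM in untreated WT cells, 34.5 and 32.8 with IFNα, 54.3 and 47.9 in untreated USP18−/− cells and 136 and 145 with IFNα. All 4 groups were separate at APOL6. It rose by 1.46 with IFNα in USP18−/− cells (SE 0.09, adjusted p = 1.6e-24). APOL1, the serum trypanolytic factor, gave 3.93 and 6.17 CPM in untreated WT cells, 9.12 and 5.23 with IFNα, 5.24 and 5.87 in untreated USP18−/− cells and 25.9 and 22.4 with IFNα, a rise of 2.12 in USP18−/− cells. APOL2, whose ISRE stretch reads as that of APOL1, rose by 1.57. APOL3 stayed low, at 1.92 and 0.866 CPM in untreated and 3.55 and 2.25 in IFN treated USP18−/− cells, with a rise of 1.04 (SE 0.37, adjusted p = 0.026). That call was lost without untreated USP18−/− replicate 2 (0.60), without IFN treated USP18−/− replicate 1 (0.63), under scaling by the sum of counts (0.90) and with DESeq2 (adjusted p = 0.19). The APOL genes are close paralogs, so reads that map to more than 1 copy make their counts uncertain.

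APOL4 moved the other way. Its nearest tested region lies upstream, at -6585 bp (chr22:36210918-36211918) in intergenic sequence, and no nearer region was tested. It gave 6.51 and 9.44 CPM in untreated WT cells, 5.85 and 8.51 with IFNα, 5.50 and 3.85 in untreated USP18−/− cells and 1.78 and 2.07 with IFNα. The IFN treated USP18−/− libraries were the lowest of all 8, with a fall of 1.29 with IFNα in USP18−/− cells (log2 fold change -1.29, SE 0.29, adjusted p = 0.00026). This was the only member region whose IFNα effect was lower in USP18−/− cells in the test of the difference (-1.13, SE 0.37, adjusted p = 0.028). The difference lost its call without WT replicate 1 (-0.89), without IFN treated WT replicate 2 (-0.83), without either untreated or IFN treated USP18−/− replicate 1 (-0.87 and -1.06), and with DESeq2 (adjusted p = 0.12).

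Metabolic genes comprised 5 of 6 listed genes and 16 regions. Of these regions 4 rose in WT cells, at 2 genes, and 12 rose in USP18−/− cells, at 3 genes, while 0 fell. GMPR, a guanosine monophosphate reductase, had its highest levels upstream of the start. The region at -1522 bp (chr6:16236558-16237558) gave 0.826 and 1.27 CPM in untreated WT cells, 3.37 and 3.18 with IFNα, 1.31 and 1.25 in untreated USP18−/− cells and 28.9 and 29.3 with IFNα. It rose by 4.49 in USP18−/− cells (SE 0.22, adjusted p = 1.9e-31) and by 1.61 in WT cells (SE 0.34, adjusted p = 0.0028). The window at -1780 bp overlaps it and rose by 4.35 and 1.68. Both WT calls were lost without WT replicate 1 (1.36 and 1.42) and without IFN treated WT replicate 1 (1.57 and 1.52). At the GMPR TSS, WT cells gave 1.03 and 1.18 CPM untreated and 1.49 and 1.44 with IFNα, and USP18−/− cells gave 2.27 and 0.866 untreated and 11.7 and 14.6 with IFNα. The TSS region rose by 3.03 in USP18−/− cells (SE 0.26, adjusted p = 1.8e-17), larger by 2.64 than in WT cells (SE 0.54, adjusted p = 0.00012). The untreated USP18−/− libraries held 25.5 and 8.5 tags there, and the rise was 2.53 to 3.88 with a library left out.

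LAP3, a leucine aminopeptidase, rose in both genotypes, from 12.2 and 10.5 to 24.6 and 25.4 CPM in WT cells and from 15.1 and 16.6 to 60.6 and 69.9 CPM in USP18−/− cells at its TSS. The rises were 1.14 (SE 0.14, adjusted p = 2.0e-09) and 2.04 (SE 0.12, adjusted p = 5.1e-27). GCH1, the first enzyme of tetrahydrobiopterin synthesis, stayed low at its TSS and rose by 1.30 in USP18−/− cells. TYMP, thymidine phosphorylase, and SCO2, a copper chaperone of cytochrome c oxidase, are neighbours and had 1 region each. TYMP gave 36.9 and 33.9 CPM in untreated WT cells, 39.2 and 40.2 with IFNα, 64.2 and 69.2 in untreated USP18−/− cells and 128 and 127 with IFNα. The TYMP difference of 0.94 with IFNα in USP18−/− cells was just under the fold threshold (SE 0.09, adjusted p = 2.1e-15). SCO2 gave 51.5 and 48.8 CPM in untreated WT cells, 53.3 and 44.6 with IFNα, 68.6 and 64.9 in untreated USP18−/− cells and 53.3 and 57.1 with IFNα. SCO2 thus had the highest untreated level among the TSS regions in both genotypes, and its WT libraries overlapped between treatments while its IFN treated USP18−/− libraries lay below the untreated ones. The SCO2 difference in USP18−/− cells, -0.28, was under the fold threshold (SE 0.10, adjusted p = 0.026).

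The other 3 genes fell outside these roles: EPSTI1, the ubiquitin ligase and ATPase RNF213, and the torsin family ATPase TOR1B. The EPSTI1 TSS region (chr13:42991783-42992783) gave 0.413 and 0.454 CPM in untreated WT cells, 4 and 5 tags, so its fold changes rest on few tags. With IFNα it gave 6.14 and 7.08 CPM in WT cells, and USP18−/− cells gave 1.57 and 1.35 CPM untreated and 35.5 and 32.8 with IFNα. All 4 groups were separate. The rises were 3.89 in WT cells (SE 0.36, adjusted p = 2.4e-14) and 4.53 in USP18−/− cells (SE 0.21, adjusted p = 2.4e-33), and the difference of 0.64 did not pass the test (SE 0.61, adjusted p = 0.62). The window at -396 bp overlaps it and rose by 3.11 and 4.54. RNF213 was highest in an intron rather than at its start. The region at 3290 bp gave 15.0 and 16.1 CPM in untreated WT cells, 35.8 and 31.0 with IFNα, 26.7 and 22.6 in untreated USP18−/− cells and 112 and 89.6 with IFNα. It rose by 1.10 in WT and 2.03 in USP18−/− cells, and the WT value was 0.99 without IFN treated WT replicate 1. TOR1B rose by 3.15 in USP18−/− cells at an intronic region 3310 bp from its TSS and by 1.47 there in WT cells, while at its TSS the USP18−/− difference was 0.75 and below the fold threshold.

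**Figure D3:**
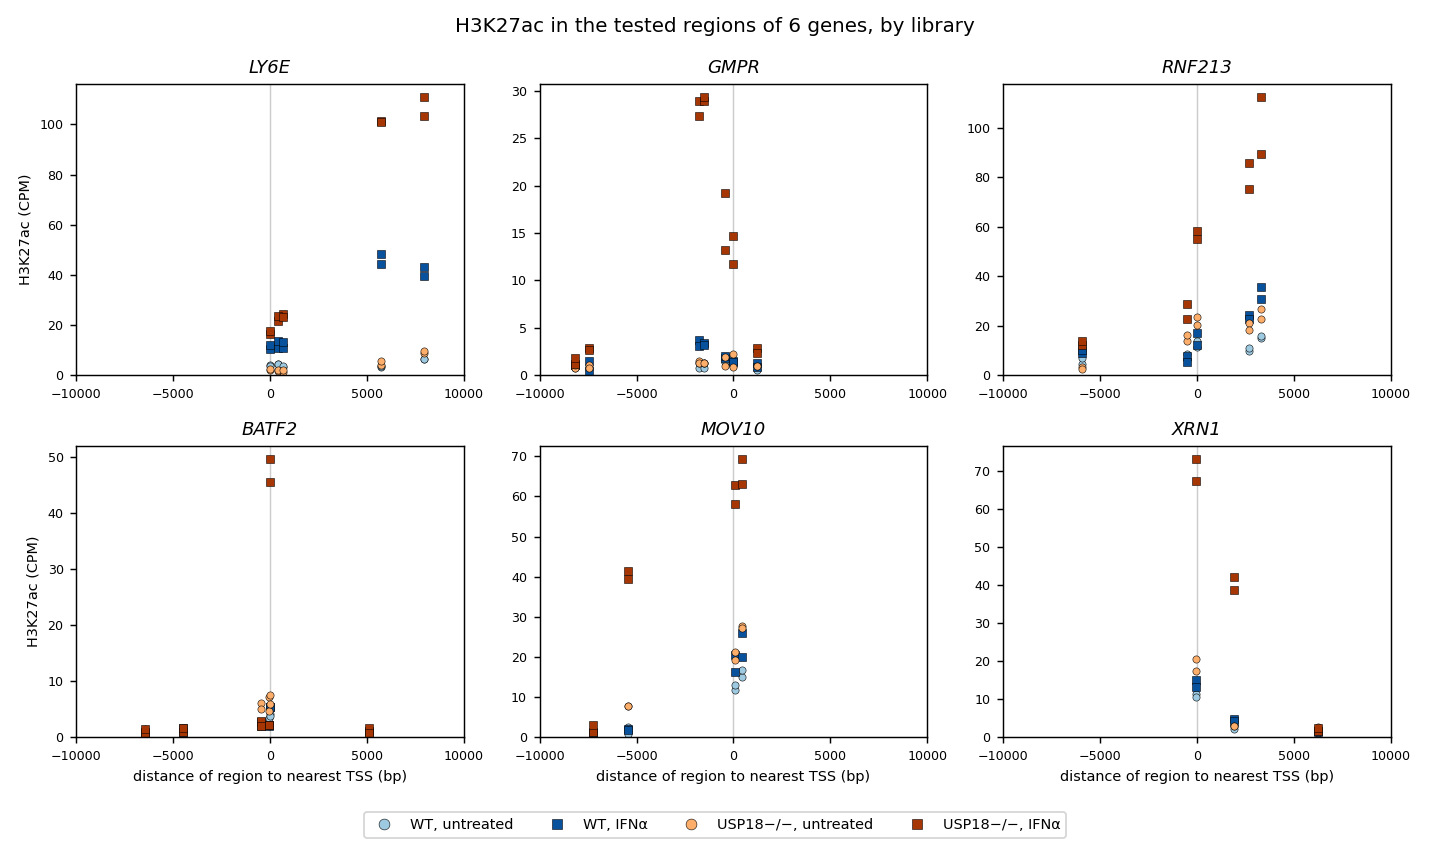
H3K27ac in CPM against the distance of each tested region to its nearest annotated TSS for LY6E, GMPR, RNF213, BATF2, MOV10 and XRN1, with 1 point for each of the 8 libraries. LY6E, GMPR and RNF213 reach their highest levels away from position 0, and the BATF2 region that rose and a region that fell both lie near 0 because they belong to different starts.

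The regions called higher in WT cells are those already given for EPSTI1 (29 and -396 bp), DDX60 (30 and 355 bp), DDX60L, HELZ2, PNPT1 (27 and 410 bp), PHF11, LGALS3BP, GMPR (-1780 and -1522 bp), LAP3 (73 bp), SHISA5 (130 bp), TOR1B (3310 bp) and RNF213 (3290 bp), with LAP3 at -177 bp (1.78), RNF213 at 2694 bp (1.19) and 5 regions of LY6E. The LY6E regions lay at 22, 404, 649, 5745 and 7954 bp, with log2 fold changes of 1.48, 1.5, 1.76, 3.66 and 2.69. LY6E thus held more of the WT calls than any other member. Of the 41 genes 6 had no called rise in USP18−/− cells: APOL4, LAMP3, N4BP1, OGFR, SCO2 and TYMP.

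In USP18−/− cells 6 member regions fell with IFNα (4.03%), a share close to the 4.28% of all tested regions. Besides APOL4 and BATF2 (at -54 and -478 bp) the falls were at single regions of TDRD7, IFI35 and LGALS9, at 6107, 7693 and 4469 bp from the TSS. The TDRD7 region at 6107 bp, in an intron, gave 3.32 and 3.46 CPM untreated and 1.24 and 1.13 with IFNα, a log2 fold change of -1.51 (SE 0.34, adjusted p = 0.00029). The IFI35 region at 7693 bp lies at the end of another annotated transcript and gave 11.4 and 9.53 CPM untreated and 4.88 and 3.10 with IFNα, a log2 fold change of -1.39 (SE 0.22, adjusted p = 1.3e-07). In WT cells the same IFI35 region gave 13.9 and 9.98 CPM untreated and 5.75 and 7.69 with IFNα. TDRD7, IFI35, LGALS9 and BATF2 each also had a region that rose.

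Without IFNα the genotypes differed less at these genes. Of 149 member regions 15 were called higher in untreated USP18−/− than WT cells (10.1%), against 5.66% of all regions, and 3 lower (2.01%), against 10.8%. Over all tested regions within 10000 bp of a TSS, as the members are, the shares were 6.87% higher and 6.49% lower. With libraries scaled by the sum of their counts, 7 member regions were higher and 7 lower. Under that scaling the median of all regions was -0.16 and not -0.02. The 15 higher regions belonged to APOL6, BATF2, EPSTI1, ETV7, IFI30, MOV10, RNF213 and TDRD7, and the 3 lower ones to GCH1 and LY6E. Of the 15, calls at APOL6 (35 and 521 bp), BATF2 (-54 bp), EPSTI1 (-396 bp), ETV7 (962 and 588 bp), IFI30 (-3524 and -19 bp) and RNF213 (-485 bp) were lost without at least 1 single untreated library. The EPSTI1 call at -396 bp was the least stable, being lost with any single library left out. It was also lost with no filter, with only the compared groups, under sum-of-counts scaling and with DESeq2 (adjusted p = 0.074). A region upstream of MOV10 (chr1:112668380-112669380), in an intron of a neighbouring transcript, differed most, with 2.48 and 0.817 CPM in WT cells and 7.77 and 7.80 in USP18−/− cells. The difference there was 2.27 (SE 0.27, adjusted p = 1.8e-11). With IFNα this region gave 1.98 and 1.85 CPM in WT cells and 41.4 and 39.5 in USP18−/− cells, where the rise was 2.38 (SE 0.16, adjusted p = 1.1e-23). The difference of its IFNα effects of 2.12 was 1.16 and no longer passed without WT replicate 1.

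IFI30 had 4 regions that were higher in untreated USP18−/− cells. Those at -3524 and -2868 bp lie within and at the end of another, noncoding transcript. The largest difference was at -584 bp, with 0.930 and 0.908 CPM in WT and 2.97 and 4.14 CPM in USP18−/− cells, a log2 fold change of 1.93 (SE 0.36, adjusted p = 7.0e-06). The EPSTI1 TSS region exceeded WT cells by 1.72 (SE 0.49, adjusted p = 0.0034), again on few tags. In the other direction, LY6E gave 4.34 and 4.45 CPM in WT and 1.75 and 2.12 CPM in USP18−/− cells at 404 bp, a log2 fold change of -1.19 (SE 0.28, adjusted p = 0.00033). At 649 bp LY6E differed by -1.13 (SE 0.31, adjusted p = 0.0019), which was -0.80 and no longer passed without untreated USP18−/− replicate 1. GCH1 at -5599 bp gave 1.14 and 1.54 CPM in WT and 0.524 and 0.385 CPM in USP18−/− cells, a log2 fold change of -1.54 (SE 0.51, adjusted p = 0.013), which was lost without WT replicate 2 (-1.29) and without untreated USP18−/− replicate 2 (-1.35). With DESeq2 that call was also lost (adjusted p = 0.061). The untreated USP18−/− libraries held 6 and 3.5 tags at this GCH1 region, so its fold changes rest on few tags. The LY6E and GCH1 regions were therefore lower in untreated USP18−/− cells and rose with IFNα there, by 3.88 at LY6E 649 bp and 3.36 at GCH1 -5599 bp.

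Between IFN treated cells of the 2 genotypes 86 of 149 member regions were higher in USP18−/− cells (57.7%), against 11.3% of all regions, and 3 were lower (2.01%), against 13.4%. Over all tested regions within 10000 bp of a TSS the shares were 13.3% higher and 8.37% lower. This contrast shares its libraries with the ones above. The median log2 fold change was 1.22 for member regions and 0.00 over all regions. All 11 TSS regions of the RNA group were called higher. The 3 lower regions were APOL4 at -6585 bp and LGALS3BP at -6175 and -6995 bp.

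The member regions were also divided by distance to the start. Of 72 member regions within 1000 bp of a TSS 56 rose with IFNα in cells lacking USP18, and the median over the 72 was 1.93 on the log2 scale. Of 18 regions farther than that but within 3000 bp 11 rose, with a median of 1.42, and of the 59 regions beyond 19 rose, with a median of 0.40. Over all tested regions the shares called higher at these distances were 3.90%, 7.32% and 7.52%, so the order with distance differed from that of the members, and the difference was not tested. The ISRE core was present in 29 of the 86 regions that rose in USP18−/− cells (33.7%) and in 2 of the 57 that were called in neither direction there (3.51%). Of the 23 regions that rose in WT cells 11 held it (47.8%). The core of the gamma activated site, TTCNNNGAA, was found in 22 of 149 member regions (14.8%), against 5.39% of all tested regions. As the list was drawn from genes known to respond to interferon, these shares describe the list.

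**Figure D4:**
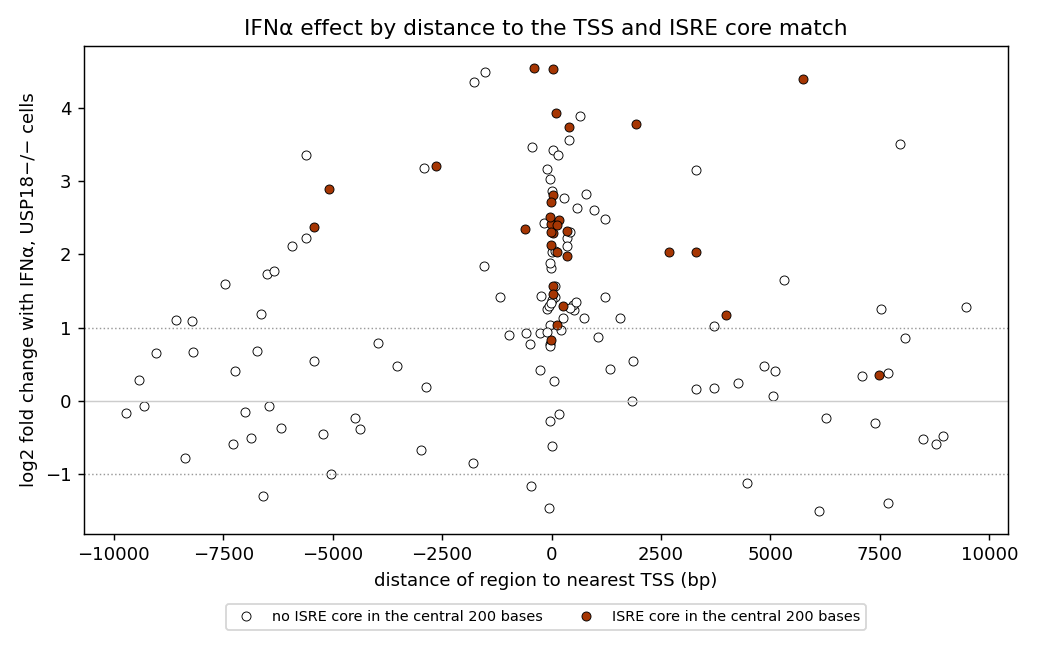
Log2 fold change of H3K27ac with IFNα in USP18−/− cells against distance to the nearest TSS for the 149 tested regions, filled where the central 200 bases hold an ISRE core. Dotted lines mark log2 fold changes of 1 and -1. Filled points cluster at the TSS and lie above 0.

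Better known ISGs were examined in the same fit. The 15 genes IFIT1, IFIT2, IFIT3, MX1, MX2, OAS1, OAS2, OAS3, OASL, ISG15, IFI6, IFI44, IFI44L, IFI27 and RSAD2 had 51 tested regions. Of these 30 rose with IFNα in WT cells, at all 15 genes, against 0.344% of all tested regions. The median over the 51 was 1.51 on the log2 scale. In USP18−/− cells 38 rose, against 7.14% of all regions, and the median was 3.07. The effect was larger than in WT cells at 29, against 4.66% of all regions, and smaller at 1, against 2.51%. Between untreated genotypes 2 of the 51 regions were higher and 1 lower (edgeR), against 5.66% and 10.8% of all regions.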

How the data were processed

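H3K27ac ChIP-seq libraries of THP-1 cells were used, 2 for each of 4 groups. Input libraries and other assays were not analysed here. A second list of reference genes and some sequences are not reported here. The authors aligned reads to hg38 with Bowtie2 and counted tags with HOMER in regions of 1000 bp centred on merged accessible regions. The submitters' processing notes also list DESeq2, and versions are not given in the sources used here. The deposited values are estimated counts, in that tags are fractional (52.2% of values whole), and they were rounded to whole numbers here, with 0.5 rounded up. Regions, gene names and distances to the TSS were used as deposited. The members and gene lists were chosen with earlier results of these data known.

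A region entered the test when 2 or more libraries held 10 counts or more (123276 of 151654). The test was edgeR 4.0.16 (glmQLFit and glmQLFTest, TMM scaling, R 4.3.3, limma 3.58.1) fitting 4 group means to all 8 libraries. The 5 contrasts were IFNα in each genotype, genotype with and without IFNα, and the difference of the IFNα effects. P-values were adjusted by Benjamini-Hochberg over all tested regions within a contrast. Calls required a log2 fold change over 1 in size and an adjusted p below 0.05. The biological coefficient of variation was 0.0737. The fit was tested on simulated data with 3-fold changes placed in 200 regions. It called 147 of these, and 86 of the 88 expected to hold at least 30 counts, with 4 false calls. Changes at regions with fewer counts were thus missed more often. Library totals of 9046141 to 12935453.5 tags limit what regions with few tags can show, and tags are not independent molecules.

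Genes were named by rule: per-library values for up to 15 TSS regions called with IFNα or in the difference, by size of the USP18−/− effect, up to 8 of the largest rises elsewhere, up to 4 falls per genotype, the 3 largest rises and falls between untreated genotypes, all WT calls, and members without a region or call. Further regions at the same genes, and TSS regions of other members, were added after their values were seen. Alternatives were other scalings, filters of 30 counts or none, unrounded values, no fold threshold, 1 window per chain of overlapping windows, DESeq2 1.42.0, the replicate number as a block, only the compared groups, and each library left out. Python 3.11.15, numpy 2.4.6, pandas 2.3.3 and matplotlib 3.10.9 were used for preparation and plots.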

Additional observations from a re-analysis of the deposited data

Results flagged for a closer look

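The IFNα effect differed between genotypes, by the test of the difference in edgeR, at 52 member regions where it was larger in USP18−/− cells and 1 where it was smaller. Values are log2 differences. Among regions nearest a TSS they were 2.87 at TMEM140, 2.64 at GMPR, 2.49 at SERPING1, 2.36 at BATF2, 2.31 at PNPT1, 2.25 at ETV7 and 2.17 at RTP4. They were 1.71 at IFI30, 1.65 at ISG20, 1.63 at APOL1, 1.49 at XRN1, 1.45 at LGALS3BP, 1.45 at LGALS9, 1.39 at PLSCR1, 1.38 at LY6E, 1.36 at IFI35, 1.28 at PHF11, 1.15 at RNF213, 1.10 at APOL2, 1.09 at HELZ2, 1.02 at APOL6 and 1.01 at MOV10. The TMEM140, GMPR and SERPING1 regions had low untreated levels. With a library left out their differences ran from 2.28 to 3.34, 2.14 to 3.48 and 2.06 to 3.13, so their order is uncertain. Away from the nearest region only part of the calls are listed. Regions named by rule gave 3.15 at GCH1 (-5599 bp, on few tags), 2.94 at XRN1 (1925 bp), 2.88 and 2.67 at GMPR (-1522 and -1780 bp), 2.49 at PNPT1 (410 bp), 2.13 and 2.05 at LY6E (649 and 404 bp), 2.12 at MOV10 (-5432 bp), 1.68 at TOR1B (3310 bp), 1.34 at SHISA5 (130 bp) and 1.16 at DDX60L (-602 bp). Further calls included GMPR at -456 bp (3.01), ISG20 at -2632 and -2922 bp (2.70 and 2.35, at the end of another transcript), CCR1 at -5074 bp (2.19) and ETV7 at 588 bp (2.04). For these further calls no values with a library left out are given. The smaller effect was -1.13 at APOL4 (-6585 bp).

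Several of these calls depended on single libraries. Without WT replicate 1 they were lost at TMEM140 (2.28), IFI30 (1.43), APOL6 (0.90), MOV10 at -5432 bp (1.16) and APOL4 (-0.89). Without WT replicate 2 they were lost at LGALS3BP (1.17), HELZ2 (0.89) and MOV10 at its TSS (0.93). Without IFN treated WT replicate 1 the calls at LGALS3BP (1.26) and APOL2 (0.98) were lost. Without IFN treated WT replicate 2 those at APOL4 (-0.83), APOL6 (0.98), MOV10 at its TSS (0.86) and RNF213 (0.93) were lost. Without untreated USP18−/− replicate 1 those at LGALS3BP (0.96), APOL2 (0.89), APOL4 (-0.87) and MOV10 at its TSS (0.90) were lost, and without replicate 2 that at APOL6 (0.93). Without IFN treated USP18−/− replicate 1 those at HELZ2 (0.90), APOL4 (-1.06) and MOV10 at its TSS (0.91) were lost, and without replicate 2 that at APOL6 (0.94). Other settings also ended calls: scaling by the sum of counts at HELZ2 (0.95), APOL2 (0.96), APOL6 (0.88) and MOV10 at its TSS (0.88), RLE scaling at MOV10 at its TSS (just under 1), and DESeq2 at MOV10 at its TSS (just under 1), LGALS3BP (1.43, adjusted p = 0.074) and APOL4 (-1.15, adjusted p = 0.12).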

How the results depend on the processing

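Counts of member regions are given as higher and lower, or larger and smaller. IFNα in WT cells gave 23 and 0, with 41 and 1 without the fold threshold and 14 higher with 1 window per chain, and 20 to 25 and 0 to 1 with a library left out. Untreated USP18−/− against WT cells gave 15 and 3, with 7 and 7 under sum-of-counts scaling, 52 and 10 without the fold threshold, 8 higher with 1 window per chain and 5 lower with a filter of 30 counts, and 10 to 15 and 2 to 6 with a library left out (6 without WT replicate 1 or untreated USP18−/− replicate 1). IFN treated USP18−/− against WT cells gave 86 and 3, with 55 higher with 1 window per chain and 5 lower under sum-of-counts scaling or without the fold threshold, and 81 to 86 and 2 to 4 with a library left out. IFNα in USP18−/− cells gave 86 and 6, with 56 higher with 1 window per chain, and 81 to 87 and 6 with a library left out. The difference gave 52 and 1, with 34 larger with 1 window per chain and 3 (sum of counts), 2 (filter of 30 counts) and 0 (DESeq2) smaller, and 46 to 52 and 0 to 3 with a library left out. One window per chain tests fewer regions (102). Left-out fits assume that the lone library of a group varies like the other groups. Under sum-of-counts scaling the higher or larger calls were 70 between IFN treated genotypes, 79 with IFNα in USP18−/− cells and 44 for the difference. The median of all regions was then -0.16 between untreated and -0.27 between IFN treated genotypes. It was -0.14 with IFNα in USP18−/− cells and -0.13 for the difference. Signs reversed at DDX60 355 bp for the difference (-0.040 under sum-of-counts scaling, and -0.024 to 0.21 with a library left out, below 0 without IFN treated WT or USP18−/− replicate 1) and at SHISA5 56 bp for IFNα in USP18−/− cells (-0.090 to 0.68 with a library left out, below 0 without untreated or IFN treated USP18−/− replicate 1), none of them called. Where no value above shows it, the cause was not tested. Replicate numbers did not pair the libraries (correlations of deviations -0.00295 to 0.0463). With the replicate block the counts were 23 and 0, 14 and 3, 85 and 3, 86 and 6, and 52 and 1 in the order above of WT, untreated, IFN treated, USP18−/− and difference, and EPSTI1 at -396 bp lost its untreated call (1.20, adjusted p = 0.052 from edgeR). Fitting the compared groups alone could not be done for the difference, which uses all 4.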
